A study of Mus with 8 samples.

Results

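Kupffer cell and macrophage genes were examined in regenerating mouse liver, with livers labelled LKB1 KO set against livers labelled Control. The genes came from a list of 35 symbols, and a gene was a member where the deposited table had a row annotated with its symbol. This held for 34 of the 35, among 23185 named genes in all. The exception was Lyz2, a lysozyme gene of myeloid cells. The members fall into 3 groups by their textbook use, with 12 genes of resident Kupffer cells, 16 of macrophages in general and 6 of monocytes and the macrophages that derive from them. The groups were set with earlier results of these data known, so contrasts between them are descriptive.

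All 8 samples were liver tissue taken 48 h after partial hepatectomy, 4 labelled LKB1 KO and 4 labelled Control. LKB1 is the protein kinase encoded by Stk11. The labels give no strain, sex or age, and they do not say which cells had lost LKB1 or by which promoter or Cre line. Each sample was run on its own expression array. Values are log2 expression levels that the authors had already normalized, and differences are LKB1 KO minus Control.

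Kupffer cells are the macrophages that live in the liver sinusoids, where they clear particles, bacteria and aged red cells from the blood and recycle iron. Their survival depends on signals through the receptor CSF1R, whose ligands are CSF1 and IL-34. When the liver is injured, circulating monocytes that carry CCR2 can enter it and become macrophages, at first without the genes that mark the resident cells. Kupffer cells are also a source of cytokines that prime hepatocytes for division after partial hepatectomy.

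Stk11 was lower in every LKB1 KO array, at 3.98, 3.97, 4.84 and 4.22 in LKB1 KO 1 to 4, against 6.69, 6.68, 6.46 and 6.76 in Control 1 to 4. LKB1 KO 2 had the highest array median (3.96, with the other arrays from 3.75) and the lowest mean correlation with its own group (0.974, against 0.976 to 0.983). As a gauge of background, the 95th percentile of the mean levels of 1354 olfactory and vomeronasal receptor genes was used, which was 3.73 log2 units. The markers Clec4f, Vsig4 and Csf1r lay above this gauge in all 8 arrays, so transcripts of Kupffer cells and macrophages were measured in both groups. In RNA of whole tissue, fewer cells of a type and less RNA per cell cannot be told apart.

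Resident and general macrophage genes stood lower in the LKB1 KO livers in nearly every case, by modest amounts, while the recruited genes did not shift in one direction. Of the 34 members, 29 had a lower mean in LKB1 KO and 5 a higher one, and the median difference was -0.38 log2 units. Over all 23185 genes the median was 0.02 and 47.1% had a lower mean, and over the 11947 genes with a mean above the gauge these were -0.02 and 52.7%. The test called 2 of the 34 members lower, Csf1r and Ctsc, and 0 higher. Over all genes 1.98% were called, 1.49% as lower and 0.487% as higher (limma, adjusted p under 0.05). Of the genes with a mean above the gauge, where 31 of the members lie, 2.85% were called lower, so the count of called members is close to that background. At an unadjusted p under 0.05, 18 members were lower and 1 was higher, against 7.63% and 5.8% of all genes. No such share was taken over the genes above the gauge alone. In 12 members every LKB1 KO array lay below every Control array, and in 1 every LKB1 KO array lay above, where 5.5% and 3.34% of all genes did so. Above the gauge, 9.37% of genes had every LKB1 KO array below every Control array.

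**Figure D1:**
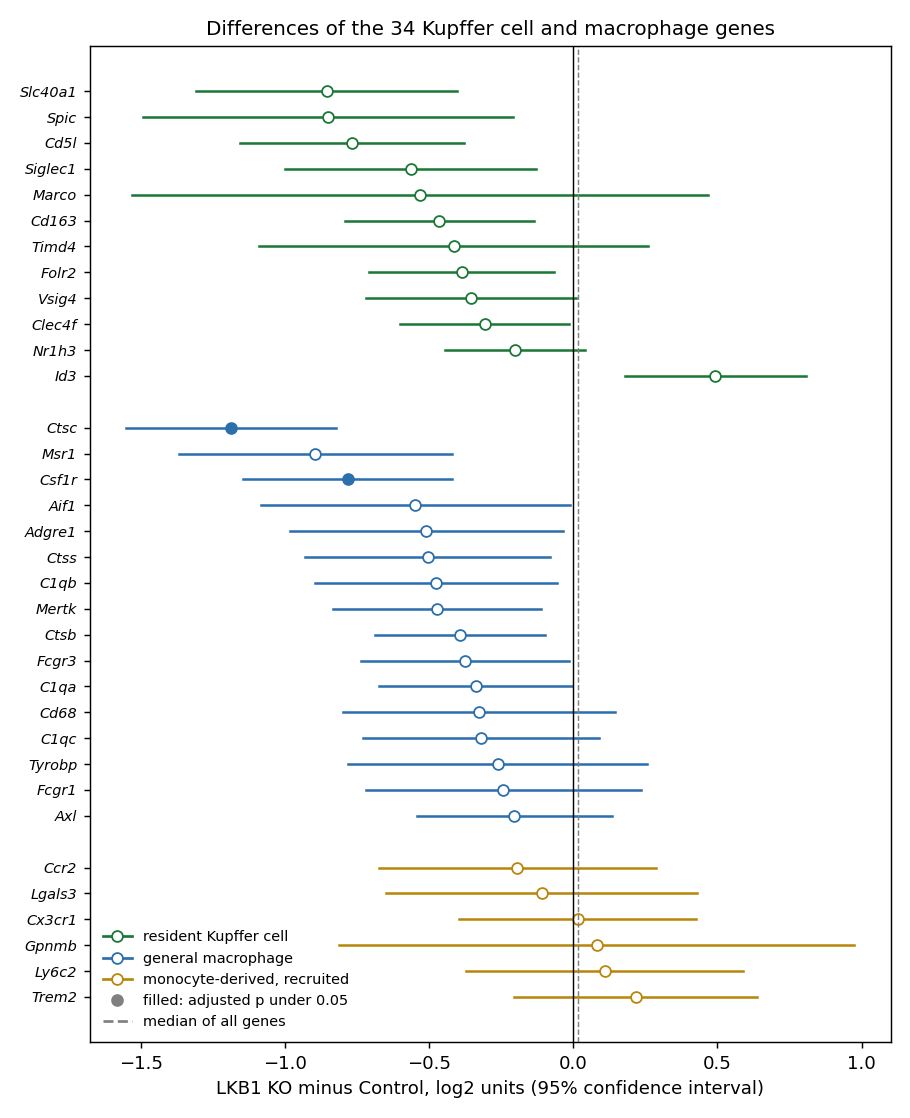
Difference between LKB1 KO and Control in log2 units (x axis) for each of the 34 genes (rows), grouped as resident, general and recruited. Points are limma estimates from 4 arrays per group, bars are 95% confidence intervals and filled points passed the adjusted p of 0.05. All 16 general genes and 11 of 12 resident genes lie left of 0, and the 6 recruited genes lie between -0.19 and 0.22.

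Among the 12 resident genes, 11 had a lower mean in the LKB1 KO livers and 0 passed the test in either direction. At an unadjusted p under 0.05, 7 were lower and 1 was higher (limma), against 7.63% and 5.8% of all genes. The median difference of the 12 was -0.44 log2 units, and single genes ran from -0.86 to 0.49. The 12 lay above the background gauge in all 8 arrays.

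The C-type lectin gene Clec4f, in mouse a marker of Kupffer cells with few other sources, measured 6.51, 6.71, 6.55 and 6.86 in LKB1 KO 1 to 4, against 7.11, 6.98, 6.76 and 7.01 in Control 1 to 4. The groups overlapped only through LKB1 KO 4 and Control 3. Its difference was -0.31 (SE 0.13, 95% confidence interval -0.60 to -0.01) and did not pass the test (adjusted p = 0.350). The complement receptor gene Vsig4, whose product captures opsonised bacteria from the blood, stood at 7.19, 6.95, 7.21 and 7.72 in LKB1 KO 1 to 4. In Control 1 to 4 Vsig4 stood at 7.78, 7.52, 7.60 and 7.59. LKB1 KO 4 lay among the Control arrays of Vsig4 and the other LKB1 KO arrays lay below them, and the difference was -0.35 (SE 0.17, adjusted p = 0.391).

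Slc40a1 encodes ferroportin, the iron exporter through which macrophages return iron from red cells to the blood. It had the largest difference of the resident genes, with 6.38, 6.32, 6.63 and 6.89 in LKB1 KO 1 to 4 and 7.90, 7.26, 7.50 and 6.98 in Control 1 to 4. The groups did not overlap, and the gap between LKB1 KO 4 and Control 4 was narrow. Which cells of the tissue gave the Slc40a1 transcripts was not tested. The difference of -0.86 (SE 0.20, a 1.81-fold lower level) did not pass the test at an adjusted p of 0.0643, and without Control 4 it was -0.998 (adjusted p = 0.0340, the lowest of a range up to 0.175 over the alternatives). Spic, the transcription factor gene of iron-recycling macrophages, measured 4.11, 4.17, 3.74 and 5.26 in LKB1 KO 1 to 4, against 5.36, 5.24, 4.74 and 5.35 in Control 1 to 4. LKB1 KO 4 lay within the Control range while the other LKB1 KO arrays lay below it. The difference of Spic was -0.85 (SE 0.29, adjusted p = 0.205) and without LKB1 KO 4 it was -1.16 (adjusted p = 0.0269, the lowest of a range up to 0.415).

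Cd5l encodes a secreted protein of tissue macrophages that binds IgM and fatty acid synthase. It gave 6.27, 6.27, 6.27 and 6.71 in LKB1 KO 1 to 4, against 7.59, 6.90, 7.03 and 7.08 in Control 1 to 4. Every LKB1 KO array was below every Control array, with LKB1 KO 4 nearest to them. The difference was -0.77 (SE 0.18, adjusted p = 0.0549), just outside the threshold.

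Timd4, a phosphatidylserine receptor gene of long-lived resident macrophages, read 5.56, 5.32, 5.29 and 5.42 in LKB1 KO 1 to 4 and 6.92, 5.26, 5.53 and 5.54 in Control 1 to 4. Control 1 stood far above the other 7 arrays, which overlapped. The scavenger receptor gene Marco had the same layout, with 6.17, 6.27, 5.76 and 6.72 in LKB1 KO 1 to 4 and 8.31, 5.79, 6.24 and 6.70 in Control 1 to 4. The differences were -0.41 for Timd4 (SE 0.30, adjusted p = 0.627) and -0.53 for Marco (SE 0.45, adjusted p = 0.682). Without Control 1 these differences came to -0.04 for Timd4 and -0.01 for Marco.

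The remaining resident genes with lower means were closer together. Cd163, the receptor gene for haemoglobin bound to haptoglobin, averaged 4.21 ± 0.16 in LKB1 KO and 4.68 ± 0.22 in Control (SD, n = 4 each). Folr2, a folate receptor gene, averaged 6.02 ± 0.12 in LKB1 KO and 6.40 ± 0.24 in Control. Neither Cd163 nor Folr2 had overlapping groups, with differences of -0.46 and -0.39 (adjusted p = 0.174 and 0.257). Siglec1, the sialic acid receptor gene also known as CD169, averaged 4.71 ± 0.38 in LKB1 KO and 5.27 ± 0.22 in Control, and its difference of -0.56 had an adjusted p of 0.218. The oxysterol receptor gene Nr1h3 (LXR-alpha), which helps set Kupffer cell identity and is also expressed in hepatocytes, had the smallest difference of the list at -0.20 (adjusted p = 0.481).

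Id3 was the only resident gene with a higher mean in the LKB1 KO livers. Its product is an inhibitor of DNA binding that Kupffer cells need for their development, and it is also expressed in other liver cells. It measured 9.06, 8.87, 9.0 and 8.79 in LKB1 KO 1 to 4, against 8.21, 8.43, 8.74 and 8.37 in Control 1 to 4. The groups did not overlap, and the difference was 0.49 (SE 0.14, 1.41-fold) with an adjusted p of 0.126.

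**Figure D2:**
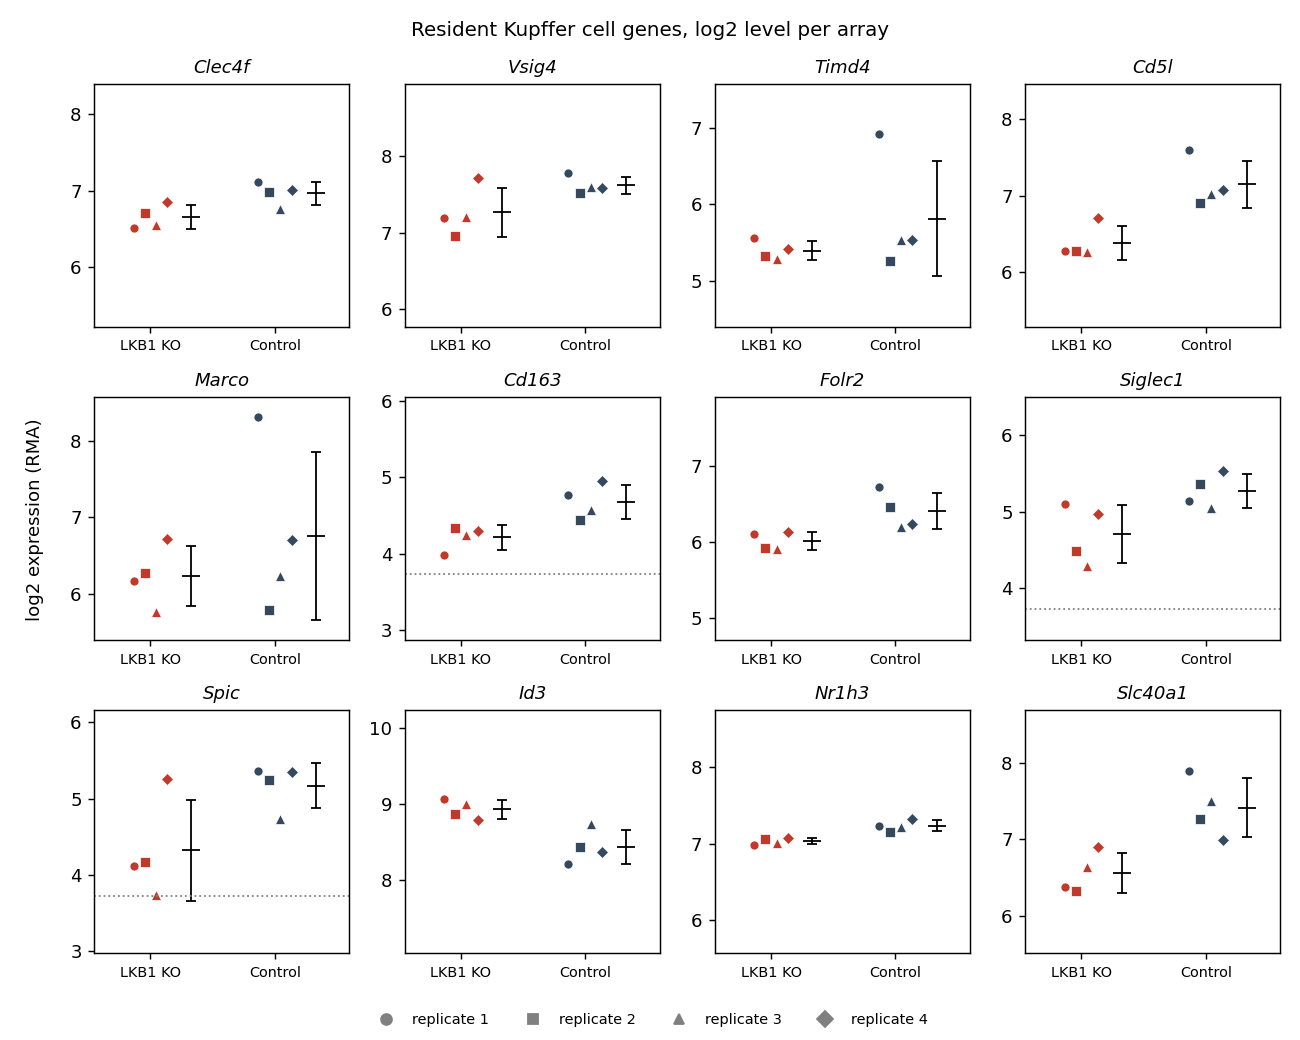
Log2 expression (y axis) of the 12 resident Kupffer cell genes in each array, LKB1 KO left and Control right. Symbols stand for replicates 1 to 4, bars for the mean and SD of 4 arrays, each panel spans the same number of log2 units, and the dotted line is the background gauge of 3.73. Control 1 stands apart in Timd4 and Marco, and Id3 is higher in all 4 LKB1 KO arrays.

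The general macrophage genes held both members that passed the test. All 16 had a lower mean in LKB1 KO, from -1.19 to -0.20 with a median of -0.43 log2 units, 2 of them fell, 0 rose and 14 did not pass. Over all genes 1.49% were called lower, and 2.85% of those with a mean above the gauge. In 7 of the 16 every LKB1 KO array lay below every Control array, against 5.5% of all genes and 9.37% above the gauge.

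Ctsc encodes cathepsin C, a lysosomal peptidase that activates the granule proteases of immune cells and that many other cells express too. It measured 6.91, 6.68, 7.07 and 7.29 in LKB1 KO 1 to 4, against 8.29, 8.03, 7.96 and 8.41 in Control 1 to 4. The lowest Control array exceeded the highest LKB1 KO array. Ctsc fell 2.28-fold (difference -1.19, SE 0.16, 95% confidence interval -1.55 to -0.82, adjusted p = 0.00542). With single arrays left out the difference lay between -1.29 and -1.08 (adjusted p up to 0.0247).

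Csf1r, the receptor gene on which macrophage survival depends, had 5.83, 5.69, 5.63 and 5.94 in LKB1 KO 1 to 4. Its Control values were 6.94, 6.26, 6.38 and 6.65 in Control 1 to 4. No array crossed between the groups. Csf1r fell 1.72-fold (difference -0.78, SE 0.16, 95% confidence interval -1.15 to -0.42, adjusted p = 0.0378). The call rested on the full set of arrays: leaving out any array but Control 2 ended it, with an adjusted p of 0.0868 without Control 1, 0.0788 without LKB1 KO 2 and up to 0.110 without LKB1 KO 3, while the difference stayed between -0.88 and -0.65. Quantile normalization gave an adjusted p of 0.0635.

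The scavenger receptor gene Msr1, which takes up modified lipoproteins, measured 5.20, 5.52, 6.06 and 6.23 in LKB1 KO 1 to 4 and 6.78, 6.45, 6.62 and 6.73 in Control 1 to 4. The groups did not overlap and the LKB1 KO arrays were spread over a wider range than the Control arrays. Its difference of -0.89 (SE 0.21) had an adjusted p of 0.0645, and without LKB1 KO 4 it was -1.05 (adjusted p = 0.0488, in a range from 0.0477 to 0.194 over the alternatives).

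The pan-macrophage markers were measured with more overlap. Adgre1, the gene of the F4/80 antigen, stood at 5.17, 5.05, 5.34 and 5.64 in LKB1 KO 1 to 4, against 6.40, 5.54, 5.47 and 5.83 in Control 1 to 4. Cd68, a lysosomal membrane protein gene, stood at 6.85, 6.62, 6.41 and 6.81 in LKB1 KO 1 to 4, against 7.53, 6.56, 6.71 and 7.21 in Control 1 to 4. In both genes Control 1 was the highest array, and Control 2 and Control 3 lay within the LKB1 KO range. The differences were -0.51 for Adgre1 and -0.33 for Cd68 (adjusted p = 0.332 and 0.576), and without Control 1 they were -0.31 and -0.15. Aif1, which encodes the actin-binding protein IBA1, had a difference of -0.55 (adjusted p = 0.360), and Tyrobp, an adaptor gene that serves TREM2 and other receptors, one of -0.26 (adjusted p = 0.700).

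C1qa, C1qb and C1qc encode the chains of complement C1q, which macrophages make. C1qa averaged 6.34 ± 0.27 in LKB1 KO and 6.68 ± 0.10 in Control, C1qb 7.27 ± 0.24 in LKB1 KO and 7.74 ± 0.35 in Control, and C1qc 6.02 ± 0.23 in LKB1 KO and 6.34 ± 0.33 in Control (SD, n = 4 each). The 3 differences were alike in size at -0.34, -0.48 and -0.32, and their adjusted p lay at 0.367, 0.299 and 0.514. LKB1 KO 3 was the lowest array for each of the 3 chains.

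Receptors for antibody and for dying cells had lower means in LKB1 KO without passing the test. The Fc receptor genes Fcgr1 and Fcgr3 had differences of -0.24 and -0.38 (adjusted p = 0.700 and 0.351). Mertk, a receptor tyrosine kinase gene for the uptake of dying cells, averaged 5.55 ± 0.33 in LKB1 KO and 6.02 ± 0.05 in Control, and its arrays did not overlap (-0.47, adjusted p = 0.212). Its relative Axl stood at -0.20 (adjusted p = 0.631). Of the other lysosomal cathepsin genes, Ctsb, which hepatocytes also express, had a difference of -0.39 and Ctss, which processes antigen in myeloid cells, one of -0.50 (adjusted p = 0.205 and 0.268).

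**Figure D3:**
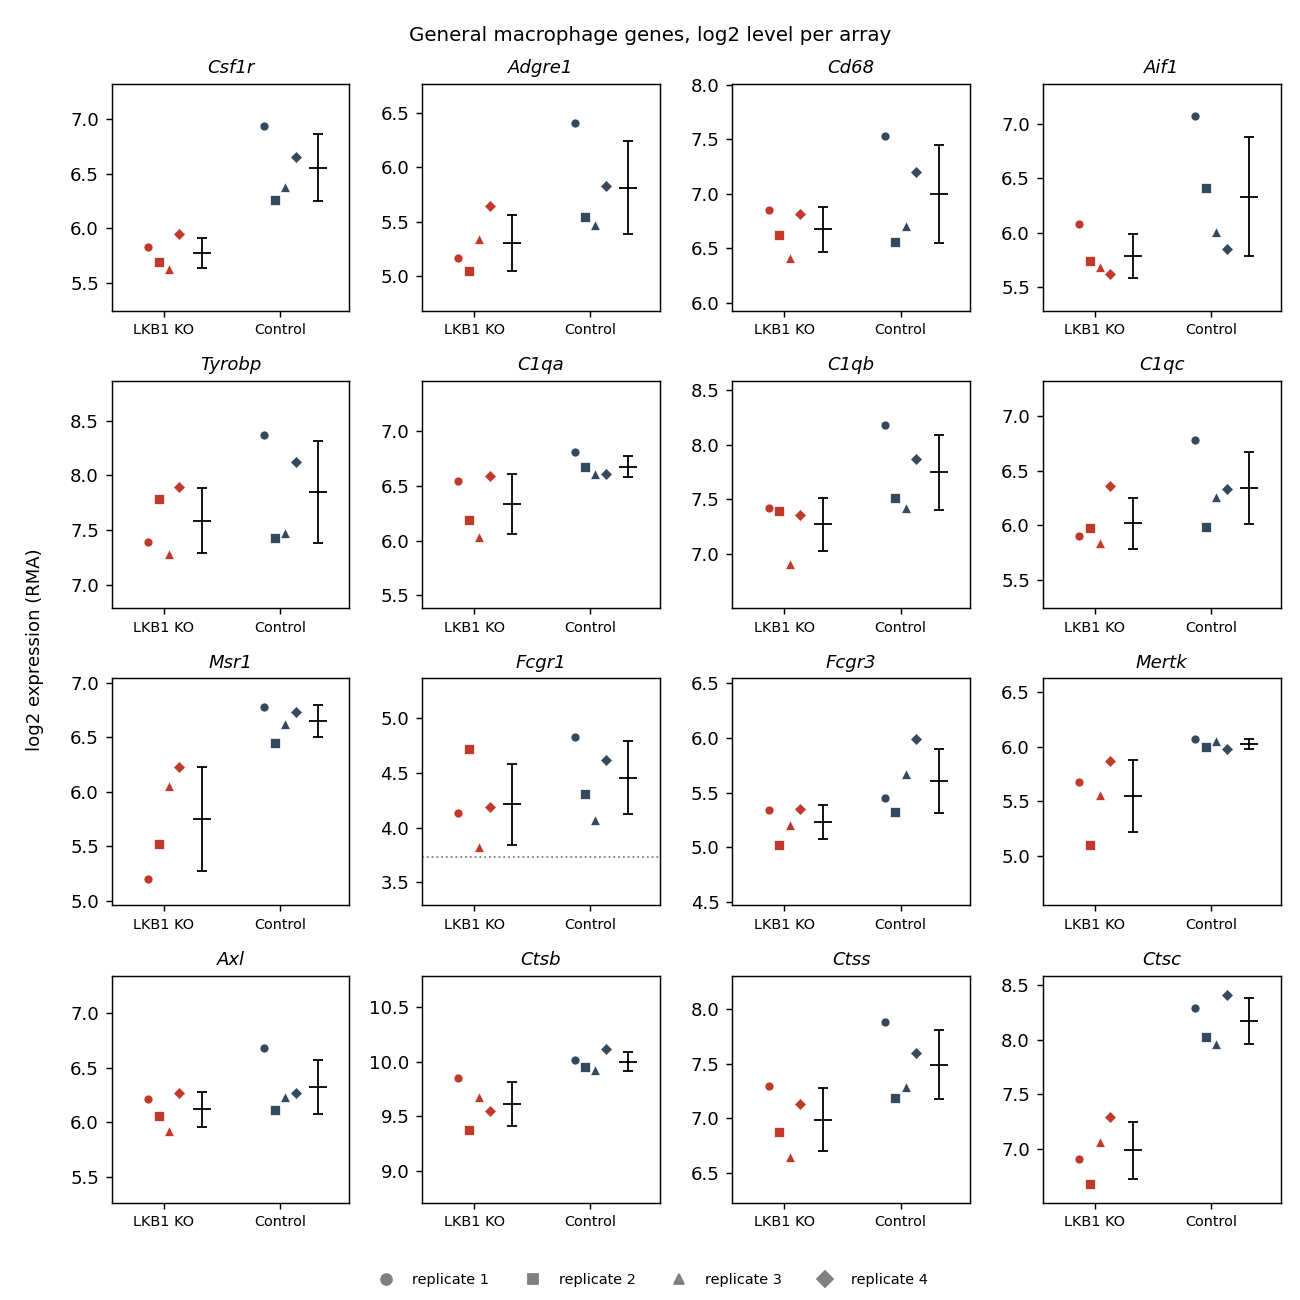
Log2 expression (y axis) of the 16 general macrophage genes in each array, LKB1 KO left and Control right. Symbols stand for replicates 1 to 4, bars for the mean and SD of 4 arrays, each panel spans the same number of log2 units, and the dotted line is the background gauge of 3.73. Ctsc and Csf1r show no overlap between the groups, and Control 1 is the highest array in 13 of the 16 genes.

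The recruited genes showed no common direction. Of the 6, 2 had a lower and 4 a higher mean in LKB1 KO, 0 passed the test, the groups overlapped in every one, and the median difference was 0.05 log2 units. At an unadjusted p under 0.05, 0 of the 6 differed, against 7.63% lower and 5.8% higher over all genes. Of all genes 1.98% were called, and 5.5% (lower) and 3.34% (higher) had arrays that did not overlap. With shares this small, counts of 0 among 6 genes do not set the recruited genes apart from other genes.

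Ccr2, the chemokine receptor gene through which monocytes leave the bone marrow and enter tissue, lay below the background gauge in all 8 arrays. Its values were 3.61, 2.89, 2.90 and 3.25 in LKB1 KO 1 to 4, against 3.62, 3.53, 2.81 and 3.47 in Control 1 to 4 (difference -0.19, 95% confidence interval -0.67 to 0.29, adjusted p = 0.770). Ly6c2, a surface antigen gene of classical monocytes, measured 3.50, 3.76, 3.16 and 3.29 in LKB1 KO 1 to 4 and 3.68, 3.09, 2.83 and 3.69 in Control 1 to 4. Only LKB1 KO 2 exceeded the gauge for Ly6c2, and the difference was 0.11 (95% confidence interval -0.37 to 0.59, adjusted p = 0.885). Levels this close to background limit what Ccr2 and Ly6c2 can show.

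Cx3cr1, the fractalkine receptor gene of non-classical monocytes and of some macrophages, was above the gauge in every array. It stood at 5.10, 5.59, 4.77 and 4.90 in LKB1 KO 1 to 4, against 5.23, 4.82, 5.01 and 5.23 in Control 1 to 4. LKB1 KO 2 was the highest array, the others were mixed, and the difference was 0.01 (95% confidence interval -0.40 to 0.43, adjusted p = 0.986). Lgals3, the galectin-3 gene, which is high in recruited macrophages, read 6.98, 6.66, 6.06 and 6.64 in LKB1 KO 1 to 4, against 7.20, 6.36, 6.28 and 6.93 in Control 1 to 4. Its difference was -0.11 (95% confidence interval -0.65 to 0.43, adjusted p = 0.897).

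Trem2 and Gpnmb mark lipid-associated macrophages. Trem2, a lipid-sensing receptor gene, had 4.23, 4.43, 4.58 and 4.97 in LKB1 KO 1 to 4, against 4.65, 3.97, 4.31 and 4.43 in Control 1 to 4. The ranges overlapped and the difference was 0.22 (95% confidence interval -0.21 to 0.64, adjusted p = 0.697). Gpnmb, a glycoprotein gene, straddled the gauge, with 2 LKB1 KO arrays and 1 Control array above it, and its difference of 0.08 had an SE of 0.40.

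**Figure D4:**
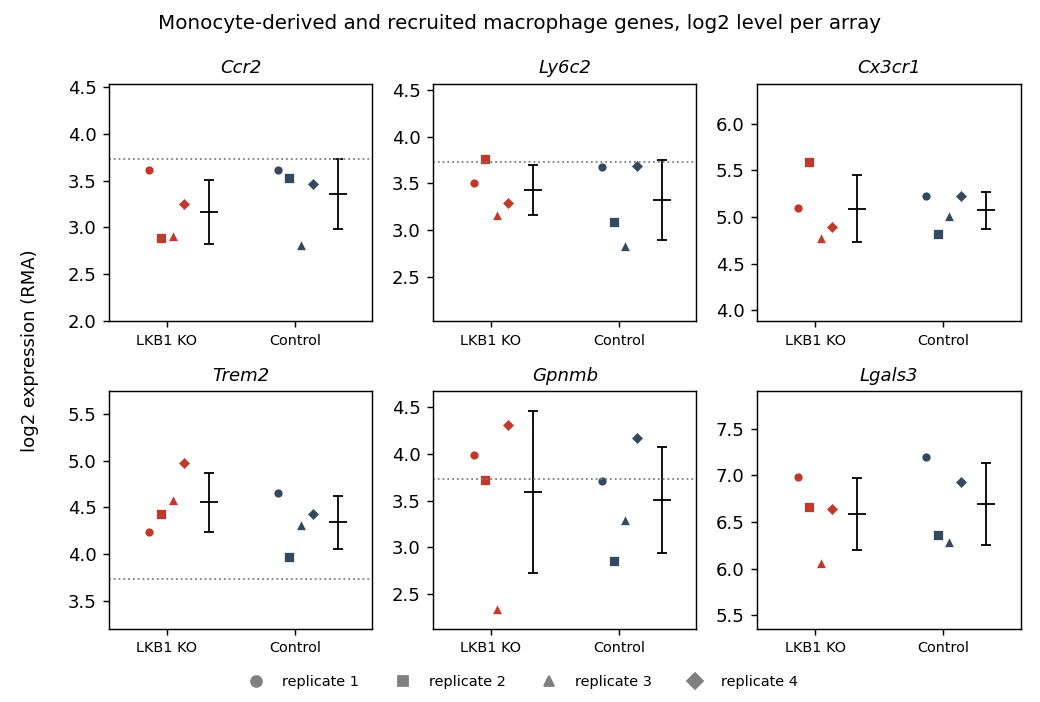
Log2 expression (y axis) of the 6 genes of monocytes and recruited macrophages in each array, LKB1 KO left and Control right. Symbols stand for replicates 1 to 4, bars for the mean and SD of 4 arrays, each panel spans the same number of log2 units, and the dotted line is the background gauge of 3.73. The groups overlap in all 6 genes, and all 8 arrays of Ccr2 lie under the line.

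Resident and recruited genes were then set against each other within each array. For each gene the mean over the 8 arrays was subtracted, and the median of these deviations was taken over each list. The resident list lay at -0.28, -0.28, -0.31 and -0.04 in LKB1 KO 1 to 4, against 0.42, 0.11, 0.06 and 0.20 in Control 1 to 4. These groups did not overlap. The recruited list lay at 0.24, 0.10, -0.33 and -0.01 in LKB1 KO 1 to 4 and 0.25, -0.28, -0.30 and 0.25 in Control 1 to 4, and overlapped. Resident minus recruited came to -0.51, -0.38, 0.02 and -0.04 in LKB1 KO 1 to 4 and to 0.17, 0.39, 0.36 and -0.05 in Control 1 to 4. LKB1 KO 1 and LKB1 KO 2 lay below all Control arrays, while LKB1 KO 3 and LKB1 KO 4 lay above Control 4. The resident median difference stood at -0.29 without Control 1, and at -0.44 without LKB1 KO 2. The 2 lists differ in level, which limits this contrast. All 12 resident genes but only 3 of the 6 recruited genes had a mean above the gauge. Over those 3 the recruited median difference was 0.01. Of all genes with a mean at or below the gauge, 41.2% had a lower mean in LKB1 KO (median 0.04), against 52.7% above it (median -0.02).

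One ratio was tested, Clec4f over Ccr2, as log2 Clec4f minus log2 Ccr2 in the same array. It was 2.90, 3.82, 3.65 and 3.61 in LKB1 KO 1 to 4, against 3.49, 3.45, 3.95 and 3.54 in Control 1 to 4. The difference of -0.11 lay within the spread of both groups (SD 0.41 in LKB1 KO and 0.23 in Control, exact two-sided permutation p = 0.743, with 0.0286 the smallest possible). Since Ccr2 was below the gauge, this ratio mostly compares Clec4f with background. The 8 other ratios of Clec4f, Vsig4 or Timd4 to Ccr2, Ly6c2 or Cx3cr1 also had lower means in LKB1 KO, with differences from -0.52 to -0.16. They share genes and were not tested. A larger change of the resident than of the recruited genes was thus described but not shown by a test.

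Many members shared their highest and lowest arrays within both groups. Within Control, Control 1 was the highest array in 24 of 34 members and Control 2 the lowest in 17. Within LKB1 KO, LKB1 KO 4 was the highest array in 20 members and LKB1 KO 3 the lowest in 19. Control 1 was the highest of the 8 arrays in 23 of 34 members, 13 of them general and 8 resident, and Control 4 in 6. The lowest array was LKB1 KO 3 in 17 members and LKB1 KO 2 in 7. LKB1 KO 1 to 4 lay below the mean of the Control arrays, Control 1 included, in 28, 28, 32 and 27 of the 34 members. Control 1 to 4 lay above the LKB1 KO mean in 33, 22, 25 and 32 members. The same counts were not taken over all genes.

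Other genes of the Kupffer cell programme were read from a list that held no member. Of its 19 measured genes, 17 had a lower mean in LKB1 KO (median -0.42 log2 units), 3 fell and 0 rose. Over all genes 1.49% were called lower and 0.487% higher. C6, a terminal complement component gene, fell 3.40-fold (difference -1.77, SE 0.16, adjusted p = 0.000947). Mrc1, the mannose receptor gene, which sinusoidal endothelial cells also express, fell by 0.85 (SE 0.14, adjusted p = 0.0123). Paqr9, a membrane receptor family gene, fell by 0.92 (SE 0.16, adjusted p = 0.0176). Which cells of the tissue gave the C6 and Paqr9 transcripts was not tested.

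Ligands and transcription factors of the macrophage lineage gave 1 call. Of 19 measured, 1 rose and 0 fell, against 0.487% called higher and 1.49% called lower over all genes. The median difference was -0.04. The gene that rose was Id1, the close relative of Id3, at 7.36 ± 0.27 in LKB1 KO and 6.28 ± 0.39 in Control (SD, n = 4 each, difference 1.08, SE 0.21, adjusted p = 0.0250). The following values were chosen after they had been seen, for their roles. The CSF1R ligand genes Csf1 and Il34 differed by 0.05 and -0.06 (SE 0.17 and 0.14, adjusted p = 0.941 and 0.896). The lineage factor gene Spi1 (PU.1) stood at -0.30 (adjusted p = 0.712) and Maf at -0.72 (adjusted p = 0.119).

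Chemokines, cytokines and their receptors gave 0 calls in either direction among 19 measured genes (median 0.01), and the smallest p belonged to Cxcl10, an interferon-induced chemokine gene, at 5.66 ± 1.10 in LKB1 KO and 3.89 ± 0.51 in Control (difference 1.77, SE 0.47, adjusted p = 0.0929). At an unadjusted p under 0.05, 0 were lower and 1 was higher, against 7.63% and 5.8% of all genes. By adjusted p, 1.49% of all genes were called lower and 0.487% higher. Ccl2, the ligand gene of CCR2, named here after its value had been seen, stood at 0.56 (SE 0.26, adjusted p = 0.379). Of 14 further genes of lipid-associated macrophages, the fatty acid binding protein gene Fabp5 fell by 2.80 (SE 0.26, adjusted p = 0.000947) and the lipid droplet gene Plin2 rose by 0.75 (SE 0.15, adjusted p = 0.0347), with a median of -0.18. The other 12 of these 14 genes were not called, and the shares called over all genes are those given above. Hepatocytes also express Plin2 and Fabp5.

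Many but not all markers of other sinusoidal cells stood lower in the same arrays. Of 19 sinusoidal endothelial genes, 18 had a lower mean in LKB1 KO (median -0.34), 4 fell and 0 rose. Over all genes 1.49% were called lower and 0.487% higher. The 1 with a higher mean was Wnt9b, close to the gauge (0.51, adjusted p = 0.0802). Differences were small for Pecam1 (-0.08), Cdh5 (-0.10), Lyve1 (-0.15) and Wnt2 (-0.01). Clec4g fell by 0.83 (SE 0.12, adjusted p = 0.00663), Gpr182 by 0.68 (SE 0.12, adjusted p = 0.0191), Fcgr2b by 0.77 (SE 0.16, adjusted p = 0.0353) and the VEGF receptor gene Kdr by 0.72 (SE 0.15, adjusted p = 0.0434). Their summed linear level, in the array's own units, ran from 1216 to 1362 in LKB1 KO and from 1581 to 1925 in Control. Of 18 stellate cell and fibroblast genes, 14 had a lower mean (median -0.27) and 0 passed the test, with Rgs5 closest (-1.02, adjusted p = 0.0822). The 4 with a higher mean included Acta2 (0.57, adjusted p = 0.558). At an unadjusted p under 0.05, 6 of the 18 were lower and 0 higher, against 7.63% and 5.8% of all genes. The summed level of the 18 ran from 871 to 1272 in LKB1 KO and from 1198 to 1760 in Control. For the 11 hepatocyte genes the median was -0.15 and 0 passed, with Fgb closest (-0.42, adjusted p = 0.0929). Their sum ran from 28947 to 31470 in LKB1 KO and from 32108 to 34067 in Control, and 2 of them were lower and 1 higher at an unadjusted p under 0.05. No endothelial, stellate or hepatocyte marker was at or below the gauge in all arrays. The sums of the members ran from 1226 to 1434 in LKB1 KO and from 1353 to 1883 in Control for the resident list, and from 1849 to 2186 in LKB1 KO and from 2497 to 3303 in Control for the general list. The part of these other cell types in the macrophage differences was not tested.

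**Figure D5:**
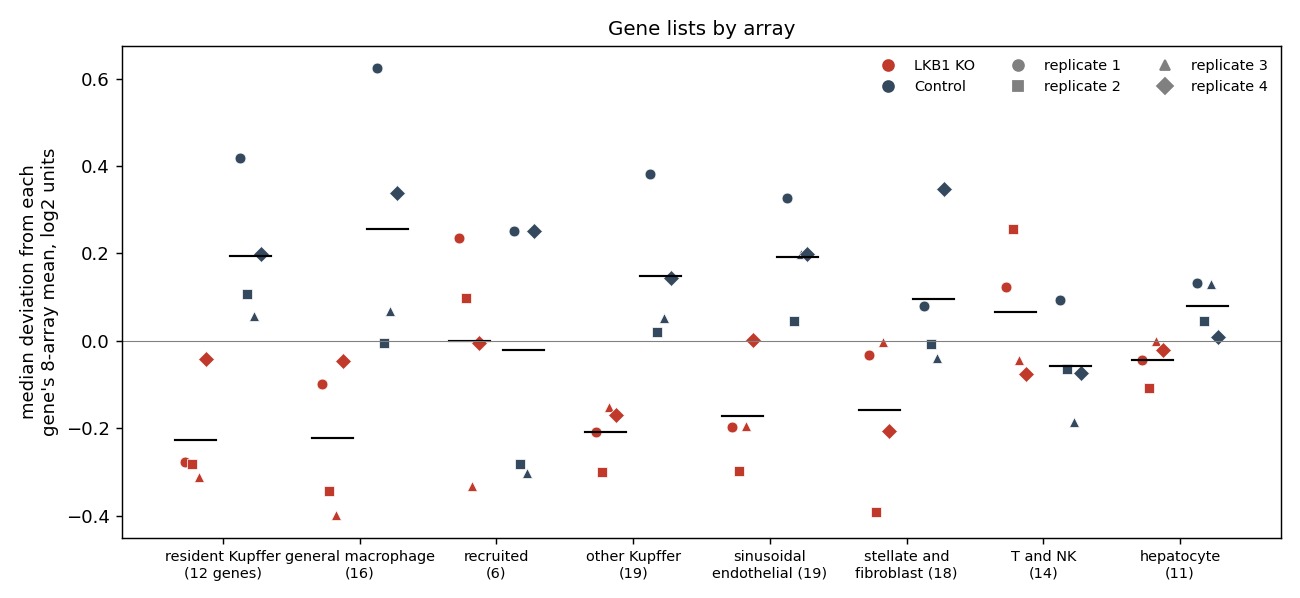
Median deviation from each gene's mean over the 8 arrays, in log2 units (y axis), for 8 gene lists (x axis), LKB1 KO left and Control right within each list. Symbols stand for replicates 1 to 4 and short lines for the group means. The resident list separates the groups (LKB1 KO at most -0.04, Control at least 0.06), as do the general macrophage, other Kupffer, endothelial and hepatocyte lists, some by narrow gaps, while the recruited, stellate and T and NK cell lists overlap.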

How the data were processed

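The authors deposited 1 log2 value per gene and array for 8 liver arrays. Per the submitters' processing notes these come from RMA and Partek. Versions, the array's probes and the build used for annotation are not stated in the labels. The platform annotation paired 23185 of the 25206 rows with 1 gene symbol, 0 with several and 2021 with none. No symbol had more than 1 row, and no filter on level was used. limma 3.58.1 in R 4.3.3 (lmFit, eBayes) was fitted over all 23185 named genes with the group as its only term, with Benjamini-Hochberg adjustment over all of them and a threshold of 0.05. The number of arrays limits the precision. The labels do not say that samples are separate animals, so p-values cover only the spread among the 8 samples given, some of which may be technical. The labels do not say that equal replicate numbers share an animal or day, so no pairing was used and a replicate block was an alternative. Deviations of equal replicate numbers had correlations of -0.04, -0.11, 0.18 and -0.02.

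The members, the 3 groups of members and the 14 other lists were chosen with earlier results of these data known. All members are accounted for. From other lists, up to 4 genes past the threshold are named by adjusted p, or the gene with the smallest p where none passed. Alternatives were a replicate block, single arrays left out, LKB1 KO 2 and Control 4 both left out, quantile normalization, median centring, the dimmest of 3 equal bins of genes left out, a trended and robust prior, array weights, all rows, other thresholds and removal of dim members.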

Additional observations from a re-analysis of the deposited data

Results flagged for a closer look

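Single arrays stood apart from the other 3 of their group in 6 of 120 group values examined, and chance flags about 1 group in 20. Among the members these were Timd4 in Control 1 (6.92 log2 units), Cd5l in LKB1 KO 4 (6.71) and C1qb in LKB1 KO 3 (6.91). The median deviation of the resident list was also apart in LKB1 KO 4, at -0.0412. Outside the members, Rgs5 stood apart in LKB1 KO 2 (3.84) and Fgb in Control 4 (12.3). The screen took the members, Stk11, the genes named by p from other lists, 3 list deviations and 1 ratio. Other genes were not screened. Among them, named after their values had been seen, Control 4 was the highest array for several myeloid genes. These were Ccl3 (6.60, other arrays up to 4.07), Retnlg (4.86, up to 3.08), Cd14 (8.66, up to 6.18) and Itgam (5.44, up to 3.79). Control 4 was likewise highest for Timp1 (8.01, up to 4.44) and Des (6.60, up to 4.94) of the stellate list. High values in Control 4 were thus not particular to myeloid genes.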

How the results depend on the processing

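The number of members past the threshold was 2, and 0 were higher in LKB1 KO under any setting. It was 1 with LKB1 KO 2 and Control 4 both left out, with quantile normalization, with the replicate block or at an adjusted p under 0.01, and from 1 to 3 with single arrays left out. It was 4 with a trended and robust prior, and 5 with the dimmest genes left out (15456 genes tested) or at an adjusted p under 0.10, where Cd5l, Slc40a1 and Msr1 joined Csf1r and Ctsc. Ctsc passed in each of these. Csf1r kept its direction under all 16 alternatives and lost its call in 10 (adjusted p = 0.0559 with the block). The count over all genes was 268 with the block, 721 with array weights and from 213 to 491 with single arrays left out, against 458. The resident median lay between -0.54 and -0.29 with single arrays left out, and the Clec4f to Ccr2 ratio between -0.223 and 0.0844. Of the members, 30 kept their direction in every alternative. The others were recruited genes: with single arrays left out Cx3cr1 lay between -0.152 and 0.120, Gpnmb between -0.159 and 0.499, Lgals3 between -0.245 and 0.0661 and Ly6c2 between -0.0561 and 0.231. Cx3cr1 also stood at -0.0990 without LKB1 KO 2 and Control 4, -0.0213 with median centring and -0.0573 with array weights. Apart from the smaller sets of arrays or genes, the cause of these shifts was not tested. Dim probes limit what can be said of Ccr2, Ly6c2 and Gpnmb.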

Other observations

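Markers of lymphocytes, granulocytes and dendritic cells gave no calls. Of 14 T and NK cell genes, 6 lay at or below the background gauge in every array, among them Cd8a (difference 0.44, adjusted p = 0.198), and the median was 0.16. Of 9 B and plasma cell genes, 6 lay there, the median was 0.09 and Sdc1, which hepatocytes also express, stood at 0.63 (adjusted p = 0.209). The 17 neutrophil and monocyte genes had a median of -0.16, with the calprotectin gene S100a8 at -1.07 (adjusted p = 0.164), and Ly6g, Elane and 4 others lay at or below the gauge throughout. The 15 dendritic cell and antigen presentation genes had a median of 0.01, with the class II gene H2-Aa at -1.26 (adjusted p = 0.132). By limma's adjusted p these 4 lists held 0 calls, and at an unadjusted p under 0.05 they held 6 lower and 3 higher genes. Over all genes the unadjusted shares were 7.63% lower and 5.8% higher.

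Of 6 erythroid genes the haem synthesis gene Alas2 fell by 1.03 (adjusted p = 0.0471), with a list median of 0.02. Of 8 cholangiocyte genes Prom1 rose by 2.21 (adjusted p = 0.00967), with a list median of 0.01 and 3 genes at or below the gauge. All 9 proliferation genes had a higher mean in LKB1 KO (median 1.26). Of these Ccnb2 rose by 1.54 and Plk1 by 1.64 (adjusted p = 0.0250 and 0.0471). The other erythroid, cholangiocyte and proliferation genes did not pass. Among all genes, 1.49% were called lower and 0.487% higher.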
